A study of Homo sapiens with 8 samples.

Results

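Rh41 is an established line grown from an alveolar rhabdomyosarcoma, a tumour with features of skeletal muscle, and all libraries of the study come from this 1 line, which carries the PAX3-FOXO1 fusion. The 9 genes described here are MDM2 and MDM4, which restrain the transcription factor p53, and the p53 targets TP53I3, TP53INP1, SESN1, ZMAT3, FDXR, RRM2B and GDF15. They were taken by gene symbol from the 60234 rows of the expression table, where each symbol has 1 row, and all 9 passed the filter of a mean of at least 1 CPM (a gene's reads scaled to the library's total, not to gene length), as did 15092 genes in all. The 4 control libraries and the 4 siG9a libraries differ by knockdown of G9a, the histone H3 lysine 9 methyltransferase encoded by EHMT2. The sample labels write siG9a and the series title shG9a, and the control reagent, the time after knockdown and the origin of the replicates are not described beyond the words biological replicates. If replicates of a group are not separate cultures, the p-values measure only the spread between these samples.

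p53 is a stress-activated transcription factor that binds a response element of paired half-sites and switches on genes for cell cycle arrest, DNA repair, metabolism and cell death. MDM2, a ubiquitin ligase, marks p53 for degradation and is itself a p53 target, which closes a feedback loop, and its paralogue MDM4 covers the transactivation domain of p53. G9a has been reported to methylate p53 itself as well as histones.

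Stretches resembling the p53 response element were sought in RefSeq promoter windows on GRCh38.p14. These ran from 250 bases before to 50 bases after each listed start. Windows of 7 of the 9 symbols were used. TP53INP1 and RRM2B were not among them, so nothing is said here about their promoter sequences. Each window was searched for the p53 response element consensus of 20 bases without a spacer. The consensus reads the same on either strand, so scanning the listed strand covered both. The stretch with the fewest mismatches was kept. The 4 best are shown with TP53I3, the member that varied most between libraries. Capitals mark the core of each half-site, CWWG in the consensus, where W is A or T and any other letter is a mismatch.
MDM2: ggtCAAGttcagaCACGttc
SESN1: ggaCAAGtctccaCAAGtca
FDXR: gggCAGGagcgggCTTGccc
GDF15: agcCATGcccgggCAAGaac
TP53I3: aggGTGGttctgcTTAGccc
The MDM2 stretch (chr12:68808923-68808942, plus strand) had 2 mismatches, a level reached by 0.649% of all 35116 promoter windows. It lies in the window of a downstream start among the 4 windows listed for this gene. The stretches of SESN1 (chr6:109009018-109009037, minus strand), FDXR (chr17:74872996-74873015, minus strand) and GDF15 (chr19:18386186-18386205, plus strand) had 3 mismatches each, reached by 5.2% of windows. These shares are per single window, and the stretch shown is the best of 4 windows for MDM2, 3 for SESN1 and 2 for FDXR, so the shares understate how often a gene with several windows reaches that level. The nearest stretch in the TP53I3 window (chr2:24084881-24084900, minus strand) had 5 mismatches, which 70.5% of windows also reach, and no more than that can be read from these letters. A match is a description of the sequence and not evidence of binding.

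The libraries held 1458825 to 1938665 reads, so 1 read was worth 0.516 to 0.685 CPM. The symbol EHMT2 has 7 rows, of which the one with the highest mean CPM was used. In that row EHMT2 fell from 75.3 ± 15.05 to 36.6 ± 16.2 CPM (SD, n = 4 each). It was lower in 4 of 4 pairs of equal replicate number, at 34.0%, 51.6%, 37.9% and 66.3% of control in replicates 1 to 4. The groups overlapped slightly, with siG9a reaching 58.5 CPM and control starting at 57.6 CPM. The limma adjusted p was 0.000472 with replicate number as a block, called blocked from here on, and 0.191 unblocked. Both replicate 3 libraries stood apart in their marker genes. The 9 rhabdomyosarcoma markers found summed to 270.0 and 231 CPM in control and siG9a replicate 3, where the other 6 libraries lay between 905 and 1790 CPM. The 5 neural markers summed to 9606 and 8936 CPM against 187 to 2952 CPM, nearly all of it from the neurofilament genes NEFM and NEFL, while INA, STMN2 and TUBB3 were at 5.71 CPM or less in replicate 3. The 5 epithelial markers summed to 75.6 and 43.96 CPM against 10.3 to 32.7 CPM, and the 7 fibroblast markers to 118 and 51.95 CPM against 146 to 407 CPM. Their genes did not move alike. KRT18 (46.1 and 29.1 CPM against 0.69 to 12.15) and KRT8 were higher in replicate 3, CDH1 and KRT19 lay inside the range of the others, and EPCAM had no reads there. COL3A1 was lower (54.7 and 38.8 CPM against 120.45 to 340.7). COL1A1 was above the others in control replicate 3 (55.3 CPM) and below them in siG9a replicate 3 (11.99 CPM). In bulk RNA, fewer cells of a type and less RNA per cell cannot be told apart. The rhabdomyosarcoma sum was lower in siG9a in 4 of 4 pairs. It was at 1217 against 1790 CPM in control, 905 against 1609, 231 against 270.0 and 1300 against 1757. DES, FGFR4, CDH15 and CHRNA1 were lower in 4 of 4 pairs, MYOD1 and MYOG in 3, and CHRND and PAX7 in 2. TMEM8C had 0.69 CPM or less. The fibroblast sum was lower in siG9a in 3 of 4 pairs and higher in replicate 4 (292.5 against 260.65 CPM). These differences in the sums were not tested. The share of reads from mitochondrial genes was higher in siG9a in 4 of 4 pairs, at 13.7%, 11.4%, 6.53% and 5.21% against 9.18%, 5.58%, 4.68% and 4.59% in control. The part of these markers and of the mitochondrial share in the results below was not tested. Without replicate 3, EHMT2 had an adjusted p of 0.0114 blocked and 0.115 unblocked.

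**Figure D1:**
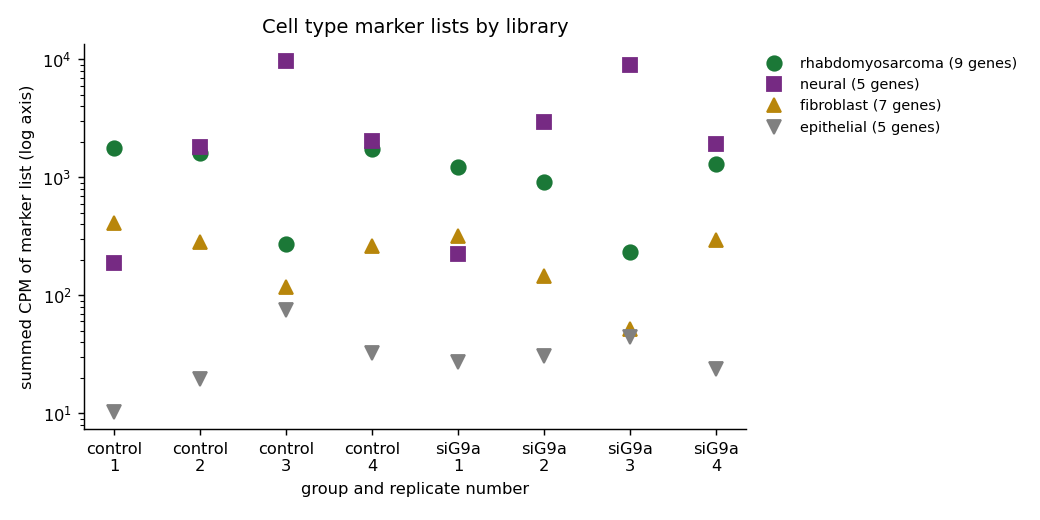
Summed CPM (log axis) of 4 lists of cell type markers in each of the 8 libraries, by group and replicate number. In both replicate 3 libraries the neural sum is at 8936 CPM or more and the rhabdomyosarcoma sum at 270.0 CPM or less.

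In siG9a the p53 targets TP53INP1, TP53I3 and ZMAT3 were lower on average than in control, and GDF15 was higher. The inhibitors MDM2 and MDM4 differed little. The 2 groups also differed in mitochondrial share and rhabdomyosarcoma marker sum in every pair. Which of the 9 genes pass a test depends on whether libraries are paired by replicate number. In the main fit, limma without a block, 0 of 9 members and 0 genes in all (0.0%) were called, with 1880 genes at an unadjusted p under 0.05, of which TP53INP1 was the only member. With the replicate number as a block, 2 of 9 members, TP53INP1 and TP53I3, were called, both lower, beside 11.4% of all genes tested. Of the 9 log2 changes, 4 were above 0 and 5 below. Calls for a fall made up 6.52% of all genes tested and calls for a rise 4.86%. Each SE given for a siG9a change is that of the blocked fit. The median log2 change of the 9 genes was −0.01, beside 0.01 for all genes tested. None of the 9 had siG9a values clear of all control values, a separation seen for 7.32% of all genes.

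**Figure D2:**
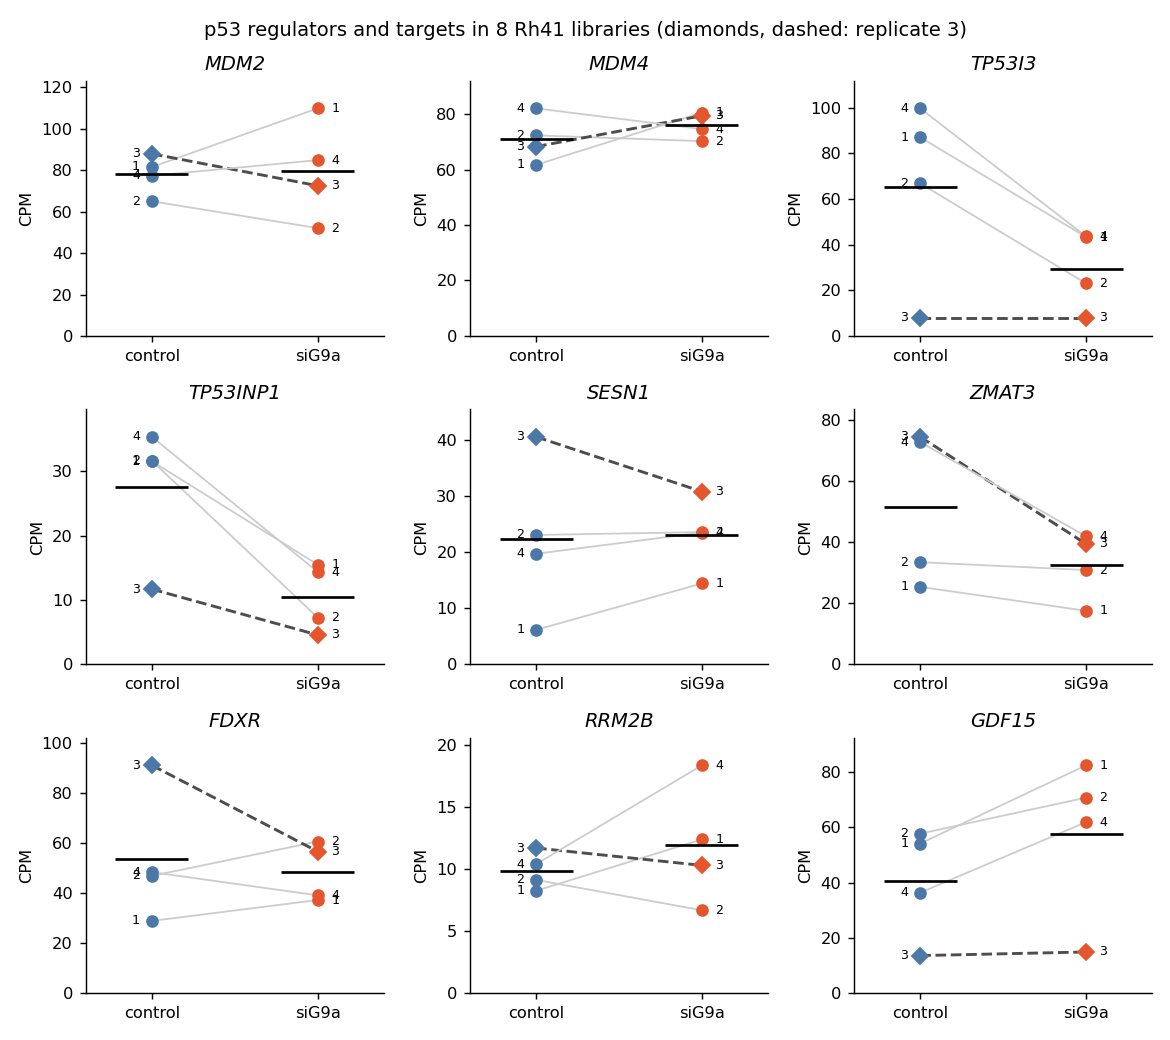
CPM of each of the 9 genes in control (blue) and siG9a (orange) libraries, with lines joining equal replicate numbers, black bars at the group means, and diamonds with dashed lines for replicate 3. TP53INP1 falls along all 4 lines, while TP53I3 and GDF15 are low in replicate 3 of both groups.

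MDM2 measured 81.6, 65.02, 87.9 and 77.4 CPM in control replicates 1 to 4 and 109.9, 52.05, 72.5 and 84.9 CPM in siG9a. The siG9a values spread more widely and enclosed those of control, and 2 of 4 pairs were higher. The log2 change was −0.01 ± 0.17 (SE) with the block (95% interval −0.36 to 0.35, limma adjusted p = 0.984). MDM4 measured 61.7, 72.3, 68.3 and 82.04 CPM in control and 80.5, 70.2, 79.4 and 74.6 CPM in siG9a. It was the steadiest of the members, with overlapping groups and a log2 change of 0.10 ± 0.17 (SE) with the block (95% interval −0.24 to 0.45, limma adjusted p = 0.760). For both inhibitors these intervals leave out a 2-fold change in either direction. Without replicate 3 the blocked log2 changes were 0.08 for MDM2 (adjusted p = 0.866) and 0.07 for MDM4 (0.887).

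TP53INP1, a nuclear stress protein that promotes p53 phosphorylation and also takes part in autophagy, measured 31.5, 31.6, 11.7 and 35.3 CPM in control replicates 1 to 4. In siG9a it measured 15.5, 7.26, 4.57 and 14.3 CPM, or 49.1%, 23.0%, 39.1% and 40.6% of its control partner. Control replicate 3 alone lay inside the siG9a range. The means were 27.5 ± 10.7 and 10.4 ± 5.33 CPM (SD, n = 4 each), and the log2 change was −1.35 ± 0.27 (SE) (limma adjusted p = 0.00169 blocked, 0.249 unblocked). With the block the call held in 9 of 9 alternatives, with adjusted p from 0.000726 to 0.0417. Without replicate 3 the groups did not overlap, at 32.8 ± 2.16 against 12.4 ± 4.45 CPM (SD, n = 3 each), as for 22% of all genes, and limma without a block gave an adjusted p of 0.0329. The siG9a values rest on 8 to 30 reads per library.

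TP53I3 encodes a quinone oxidoreductase-like enzyme linked to the generation of reactive oxygen species. It measured 87.1, 66.8, 7.99 and 99.7 CPM in control replicates 1 to 4 and 43.3, 23.0, 7.99 and 43.6 CPM in siG9a. It was lower in siG9a in replicates 1, 2 and 4, at 49.8%, 34.4% and 43.7% of control, and the same to 2 decimals in replicate 3, where 13 and 14 reads were counted. Because of replicate 3 the control SD was 40.6 CPM around a mean of 65.4 CPM, against 29.5 ± 17.3 CPM in siG9a (SD, n = 4 each). The log2 change was −0.92 ± 0.23 (SE) (limma adjusted p = 0.00979 blocked, 0.654 unblocked). With the block the call was lost without pair 1 (adjusted p = 0.0558), pair 2 (0.139) or pair 4 (0.0655). Without replicate 3 the groups were separate, as for 22% of all genes, at 84.5 ± 16.6 and 36.6 ± 11.8 CPM (SD, n = 3 each). The log2 change was then −1.22 (limma adjusted p = 0.0287 unblocked, 0.00174 blocked). At that setting 2.74% of all genes were called unblocked (1.95% lower, 0.782% higher) and 7.14% blocked (4.59% lower, 2.56% higher), and TP53I3 and TP53INP1 were the 2 members called in both fits.

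GDF15, a secreted stress cytokine of the TGF-beta superfamily that other stress pathways also induce, went the other way without passing the test. It measured 54.2, 57.7, 13.5 and 36.4 CPM in control replicates 1 to 4 and 82.5, 70.8, 14.8 and 61.9 CPM in siG9a. It was higher in 4 of 4 pairs, at 110% to 170% of control, a pattern shared by 14.9% of all genes. The log2 change was 0.44 ± 0.19 (SE) (limma adjusted p = 0.150 blocked, 0.80 unblocked). Outside replicate 3 the 3 siG9a values were all above the 3 control values. Such a separation, in either direction, was seen there for 22% of all genes. Without replicate 3 the limma adjusted p of GDF15 was 0.129 blocked and 0.272 unblocked.

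ZMAT3 encodes a zinc finger protein that binds RNA and acts on splicing and mRNA stability. It measured 25.4, 33.4, 74.4 and 72.7 CPM in control and 17.5, 30.9, 39.4 and 41.9 CPM in siG9a. All 4 pairs were lower in siG9a, as for 15.3% of all genes, but the control libraries themselves differed almost 3-fold, replicates 3 and 4 being the high ones. The log2 change was −0.58 ± 0.20 (SE) (limma adjusted p = 0.0660 blocked, 0.586 unblocked). edgeR with the block called it, at an adjusted p of 0.0476, the only alternative that did. Without replicate 3 the blocked log2 change of ZMAT3 was −0.47 (adjusted p = 0.284).

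SESN1, FDXR and RRM2B showed no change beyond their spread. SESN1, a sestrin that holds back the growth kinase complex mTORC1 under stress, measured 6.17, 23.1, 40.6 and 19.7 CPM in control and 14.4, 23.6, 30.8 and 23.5 CPM in siG9a. Its control values enclosed all 4 siG9a values, and the limma adjusted p was 0.604 with the block. FDXR, the mitochondrial reductase that passes electrons to ferredoxin for steroid and iron-sulphur cluster synthesis, measured 28.8, 46.8, 91.01 and 48.3 CPM in control and 37.1, 60.5, 56.5 and 39.0 CPM in siG9a, with an adjusted p of 0.883. RRM2B, the p53-inducible small subunit of ribonucleotide reductase, was the lowest member, at 8.23, 9.11, 11.7 and 10.4 CPM in control and 12.4, 6.66, 10.3 and 18.4 CPM in siG9a. These values rest on 11 to 32 reads per library, and the adjusted p was 0.773. Its 95% interval with the block, −0.46 to 0.83 in log2, reaches closer to a 2-fold rise than those of MDM2 and MDM4. Without replicate 3 the blocked adjusted p was 0.431 for SESN1, 0.787 for FDXR and 0.694 for RRM2B, with log2 changes of 0.46, 0.14 and 0.30.

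**Figure D3:**
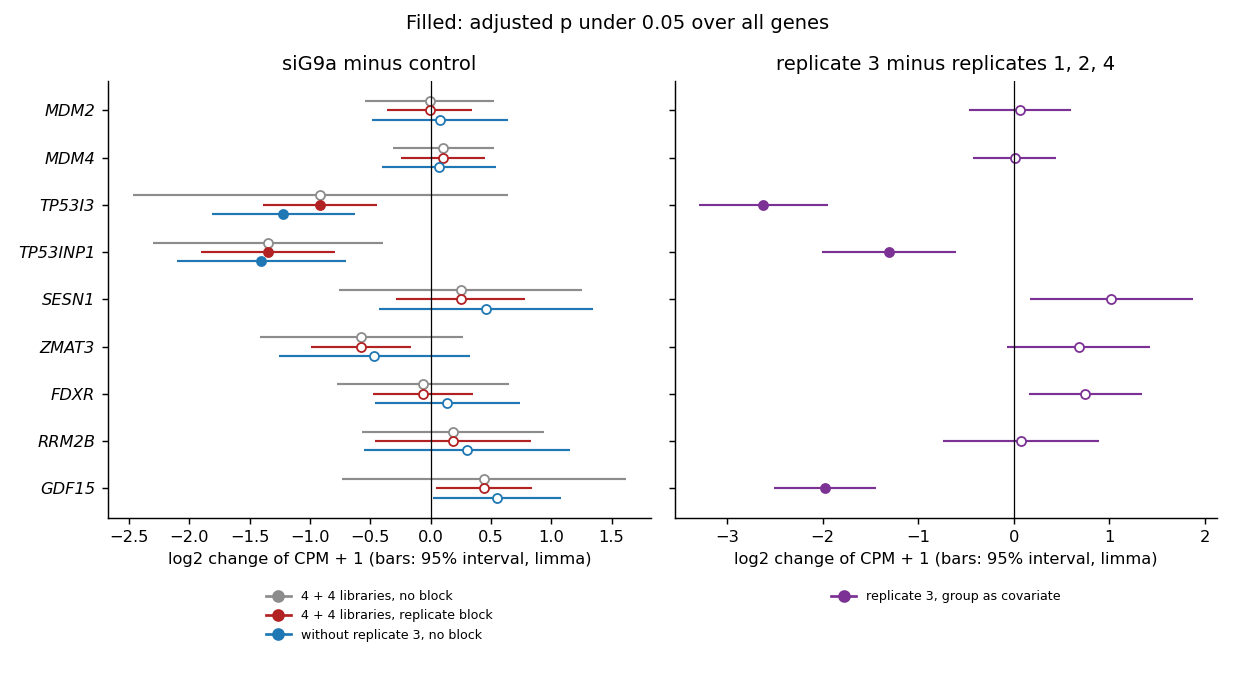
Log2 change of CPM + 1 for each gene with 95% limma intervals, siG9a minus control at left (without a block, with the replicate block, and without replicate 3) and replicate 3 minus the other replicates at right. Filled points, for TP53I3 and TP53INP1 at left and for these and GDF15 at right, have an adjusted p under 0.05 over all genes.

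The comparison of the 2 replicate 3 libraries with the 6 others, with group as a covariate, was chosen with earlier results known. This fit counts all 8 libraries as independent, although the 2 numbered 3 deviated from their group means alike (r = 0.67 across genes). If equal numbers mark a shared origin, it sets 1 number against 3, and its SEs and adjusted p can be too small. TP53I3, GDF15 and TP53INP1 were lower in replicate 3 and passed the test, 3 of 9 members, and none was called higher. Over all genes tested 18.0% were called, 10% lower and 8.0% higher in replicate 3. TP53I3 stood at 9.45% of the mean of the other control libraries in control replicate 3 and at 21.8% in siG9a replicate 3, a log2 change of −2.62 ± 0.32 (SE) (limma, adjusted p = 3.48e-05). GDF15 stood at 27.4% and 20.7%, with a log2 change of −1.98 ± 0.25 (SE) and an adjusted p of 5.55e-05. For both genes the 2 replicate 3 values lay below all 6 others, as for 13.7% of all genes, and both were called in 16 of 16 alternatives.

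TP53INP1 stood at 35.6% and 37.0% in replicate 3, with a log2 change of −1.31 ± 0.33 (SE) and a limma adjusted p of 0.0117. This call was lost without control replicate 3 (adjusted p = 0.228) or siG9a replicate 3 (0.0934), each of which leaves 1 library on that side. SESN1 was the member whose 2 replicate 3 values, 40.6 and 30.8 CPM, lay above all 6 others (6.17 to 23.6 CPM), as for 14.4% of all genes, and its log2 change of 1.02 ± 0.40 (SE) had an adjusted p of 0.0900. FDXR was at 220% and 124% of the other libraries of its group, with an adjusted p of 0.0738, and of its 16 alternatives 1 called it, without siG9a replicate 2 (0.0346). ZMAT3 was at 170% and 131%, with an adjusted p of 0.208. MDM2 (118% and 88.1%), MDM4 (94.8% and 106%) and RRM2B (126% and 82.5%) lay on both sides of the other libraries, with adjusted p of 0.895, 0.986 and 0.914.

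**Figure D4:**
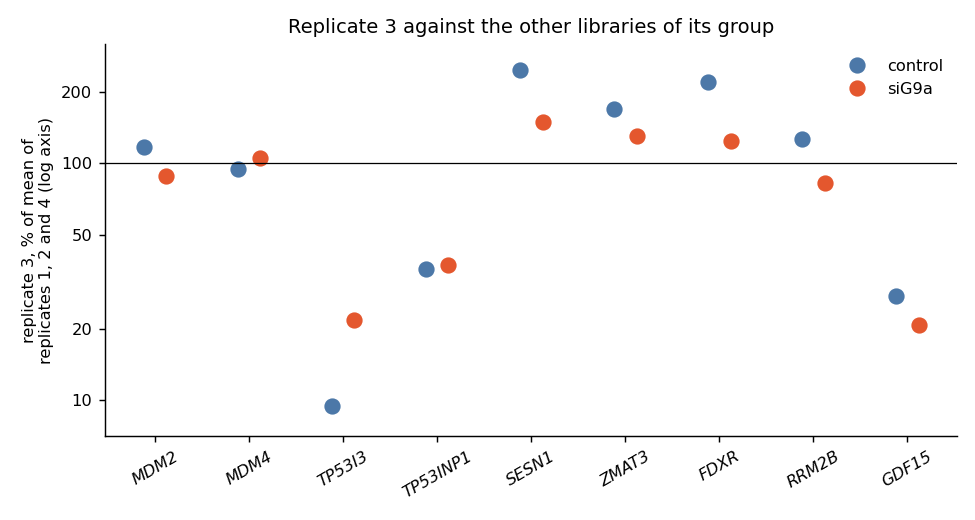
Replicate 3 of each group as a percentage of the mean of replicates 1, 2 and 4 of the same group (log axis), control in blue and siG9a in orange. TP53I3, TP53INP1 and GDF15 lie below 40% in both groups, and SESN1, ZMAT3 and FDXR lie above 100% in both.

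Whether the siG9a difference was itself another one in replicate 3 was tested by an interaction term, which rests on 1 pair against 3. None of the 9 members and none of all genes (0.0%, with 327 genes at an unadjusted p under 0.05) passed in limma. With no filter on low values, 1155 of 25901 genes passed, 0 members among them. TP53I3 had the largest difference among the members, 1.22 ± 0.60 (SE) in log2, with an unadjusted p of 0.0594 and an adjusted p of 1.00.

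Beyond the 9 genes, lists of p53 pathway genes from general knowledge were counted in the same fits. Of 71 further p53 targets found, 63 passed the filter, and with the block 8 were called, 3 higher and 5 lower, against 11.4% of all genes. Their median log2 change was 0.05, beside 0.01 for all genes tested, with 36 above 0 and 27 below. Without the block 0 of 63 were called, with 7 at an unadjusted p under 0.05. The blocked fit without replicate 3 called 7 of 63, 5 higher and 2 lower. At that setting 7.14% of all genes were called, 2.56% higher and 4.59% lower. Of 27 regulators of p53, from kinases to acetyltransferases, 0 were called with or without the block in limma, with 4 at an unadjusted p under 0.05 with the block and 0 without it.

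Among the 10 targets for arrest and feedback, 0 were called with the block and 2 had an unadjusted p under 0.05. CDKN1A, which encodes the cyclin-dependent kinase inhibitor p21, measured 39.8, 32.8, 36.3 and 29.6 CPM in control and 38.2, 26.03, 16.6 and 32.1 CPM in siG9a. It was lower in 3 of 4 pairs, with a log2 change of −0.34 ± 0.23 (SE) (limma, blocked, adjusted p = 0.375), and −0.09 without replicate 3 (0.875). Among the 8 DNA repair targets 0 were called with the block, with 1 at an unadjusted p under 0.05.

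Of 17 cell death targets, 2 were called with the block and they moved in opposite directions. BBC3, which encodes the BH3-only killer protein PUMA, rose from 12.3, 35.2, 63.3 and 17.7 CPM in control to 26.8, 56.9, 87.4 and 47.6 CPM in siG9a. All 4 pairs were higher although the groups overlapped, with a log2 change of 0.89 ± 0.21 (SE) (limma adjusted p = 0.00560 blocked, 0.474 unblocked). BAX, the pore-forming effector of the same pathway, fell in all 4 pairs, from 142.6, 206, 240.4 and 208 CPM to 77.9, 139, 197.5 and 179 CPM. Its log2 change was −0.48 ± 0.15 (SE) (limma adjusted p = 0.0392 blocked, 0.533 unblocked), and the call held in 3 of 9 blocked alternatives. It was lost without pair 1 (0.219), pair 2 (0.186) or pair 3 (0.0828), in edgeR (0.0503), in DESeq2 (0.0956) and with a pseudocount of 0.1 (0.0543). Without replicate 3, BBC3 had an adjusted p of 0.0180 blocked and 0.149 unblocked.

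The 13 targets in metabolism, redox and autophagy held 4 calls with the block, 1 higher and 3 lower. GPX1, a glutathione peroxidase, fell from 104 ± 20.1 to 58.5 ± 11.1 CPM (SD, n = 4 each) with no overlap and an adjusted p of 0.00211. CPT1C, a neuronal member of the carnitine palmitoyltransferase family, fell from 35.04 ± 9.42 to 18.99 ± 8.31 CPM with an adjusted p of 0.00916, and CES2, a carboxylesterase, from 95.7 ± 18.3 to 62.1 ± 11.9 CPM with an adjusted p of 0.0182. DRAM1, a lysosomal membrane protein that promotes autophagy, rose from 1.09 ± 0.63 to 4.96 ± 1.23 CPM (adjusted p = 0.0212), but its control values rest on 3 reads or fewer, so no fold is given. With the block CPT1C was lost without pair 3 (0.0638), and CES2 without pair 1 (0.0967), 3 (0.0864) or 4 (0.0546) and in DESeq2 (0.0514). DRAM1 was lost without pair 1 (0.0566), 2 (0.129) or 4 (0.109) and with a pseudocount of 0.1 (0.0535). The blocked adjusted p without replicate 3 was 0.0265 for GPX1 and 0.0268 for DRAM1. None of these 4 passed in the main fit without the block, where the limma adjusted p ran from 0.159 to 0.351. Of 17 unblocked alternatives, 1 called GPX1 and 0 called CPT1C, CES2 or DRAM1.

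Among 15 other targets, CD82 was called lower with the block. This gene, a tetraspanin that suppresses metastasis, fell from 603, 616, 148 and 525 CPM in control to 151.7, 125, 86.8 and 298 CPM in siG9a (limma adjusted p = 1.89e-05 blocked, 0.233 unblocked). Like TP53I3 it was low in replicate 3 of both groups, and without replicate 3 it was called without the block too (adjusted p = 0.00267).

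p53 also lowers cell cycle genes indirectly, through p21 and the DREAM repressor complex, and 18 such genes were counted. With the block 3 were called: BIRC5, which encodes survivin, fell (log2 change −0.97, adjusted p = 0.000469), while the mitotic kinases AURKB (0.55, adjusted p = 0.0261) and PLK1 (0.53, adjusted p = 0.0263) rose. AURKB and PLK1 each held in 5 of 9 blocked alternatives. AURKB was lost without pair 1 (0.177), 3 (0.0530) or 4 (0.106) and in DESeq2 (0.0721), and PLK1 without pair 1 (0.0750), 2 (0.117) or 3 (0.130) and in DESeq2 (0.0700). BIRC5 without replicate 3 had a blocked adjusted p of 0.0131. The median of the 18 was 0.08 in log2, with 12 above 0 and 6 below, and without the block 0 were called, with 2 at an unadjusted p under 0.05.

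**Figure D5:**
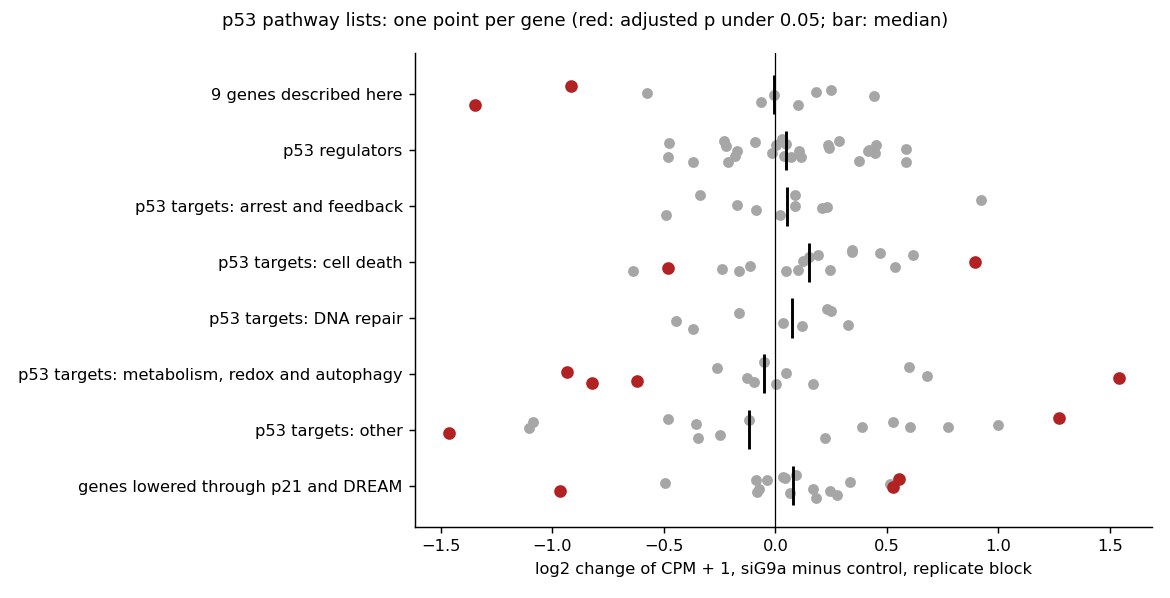
Log2 change of CPM + 1, siG9a minus control with the replicate block, for every tested gene of each list (points, red where the adjusted p was under 0.05, black bar at the list's median). Medians lie close to 0, and called genes stand on both sides in every list that has more than 1 call apart from the 9 genes at the top, where both called genes are lower.

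Genes whose profiles over the 8 libraries most resembled those of the members were looked up among the 8893 genes averaging 10 CPM or more, as a description without a test. All profiles share the same 8 libraries, and replicate 3 shapes many of them. TP53I3 was closest to AES (r = 1.00) and RAPGEF1 (0.99), TP53INP1 to RP11-458N5.1 (1.00) and ALDH1A3 (0.99), and GDF15 to SLC35E2B (0.99) and DUSP13 (0.98). SESN1 was closest to HIST1H2BK (0.99) and KRT18 (0.98), ZMAT3 to MPI and NRF1 (0.97 each), and FDXR to RP11-485G4.2 (0.98) and DNAAF3 (0.97). For MDM2 (RBM12, 0.95, and ATL2, 0.94), MDM4 (C11orf57, 0.93, and COASY, 0.92) and RRM2B (GTF2A1, 0.93, and HERC5, 0.90) the nearest profiles were less alike. None of these lists of 2 held another member.

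In GENCODE release 29, 5 of the 9 genes overlap a gene on the opposite strand, among them TP53I3 with FAM228B and TP53INP1 with NDUFAF6. The strand setting of the authors' counting is not given in the sources used here, so reads of such partners may be counted with these genes.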

How the data were processed

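RNA was measured in 8 Rh41 libraries, 4 control and 4 siG9a, by QuantSeq 3′ mRNA sequencing. Per the file headers, the authors deposited CPM (reads scaled to the library total, 2 decimals, not divided by length). The submitters' processing notes name FastQC 0.11.8, Trim Galore, STAR 2.5.0a, HTSeq 0.8.0 and edgeR 3.28, and both GRCh38 and hg19. Which build and strand setting made the table is not given in the sources used here. All non-zero values (100%, within 0.0051 CPM) were whole multiples of 1 read, so reads were recovered (1458825 to 1938665 per library).

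The main test was limma 3.58.1 (R 4.3.3) on log2(CPM + 1), two-sided, with trend. It covered the 15092 genes averaging 1 CPM or more, with Benjamini-Hochberg adjustment and a threshold of 0.05. The pseudocount understates the change of low genes. The replicate number was added as a block because deviations of same-numbered libraries from their group means correlated across genes by 0.50, 0.10, 0.67 and 0.13 for numbers 1 to 4, each above 0.1. Not every library matched its own number best: control 2 correlated best with siG9a 4 (0.14), and siG9a 4 with control 2. The numbers come from the sample titles, which do not explain them. Alternatives were other pseudocounts, filters and scalings, edgeR 4.0.16, DESeq2 1.42.0, and leaving out libraries or pairs. Scripts were tested on simulated data.

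Members and gene lists were chosen with earlier results of these data known. Named genes are the 9 members, EHMT2, CDKN1A, BBC3 and BAX, and in each list at most the 4 with the smallest adjusted p among those called with the block. Some genes that the rule includes are not reported here. GENCODE release 29 served only for overlaps between genes, and the promoter windows are RefSeq's on GRCh38.p14.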

Additional observations from a re-analysis of the deposited data

Results flagged for a closer look

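In 3 of 44 groups of 4 libraries, 1 library lay far from the rest by the gap to its nearest neighbour over the group's range. Chance flags about 1 in 20 groups, or 2.2 here. TP53INP1 in control replicate 3 was at 11.7 CPM against 31.5 to 35.3 CPM in the other control libraries. CPT1C in control replicate 3 was at 20.9 CPM against 39.5 to 39.98 CPM. CES2 in siG9a replicate 1 was at 44.4 CPM against 66.2 to 69.4 CPM.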

How the results depend on the processing

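Without a block limma called 0 genes, and 0 members and 0 further pathway genes among them; the count of genes was 18 with no filter and 292 in DESeq2 (3 pathway genes), and 413 without replicate 3 of both groups (2 members, 1 pathway gene). Leaving out single libraries gave 0 to 300 genes, 0 to 1 members and 0 to 1 pathway genes, the highest without control replicate 3. With the replicate block, which pairs libraries by number, the counts were 1717 genes, 2 members and 11 pathway genes, in edgeR 1709, 3 and 11, and in DESeq2 936, 2 and 5. With the block, leaving out pair 1, 2, 3 or 4 gave 951, 668, 1078 and 1393 genes, 1, 1, 2 and 1 members, and 5, 7, 8 and 12 pathway genes. Alternatives chosen after seeing the data, the block with a pseudocount of 0.1 or 5 or with median-ratio scaling, gave 1363, 1710 and 1693 genes, 2 members each, and 8, 11 and 11 pathway genes. For replicate 3 against the others the count of 2721 genes became 1655 without the variance trend, and 436 to 2784 without single libraries (436 and 869 without control or siG9a replicate 3). The causes were not tested.

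Among the 9 members, signs turned only for values that were not called, some of them well away from 0. For siG9a against control, MDM2 was at 0.031 in edgeR, 0.019 in DESeq2, 0.081 without replicate 3 in either fit and 0.094 with the block without pair 2. SESN1 was at −0.038 with the block without pair 1, FDXR at 0.14 without replicate 3 in either fit and 0.014 with the block without pair 4, and RRM2B at −0.011 with the block without pair 4. Without single libraries MDM2 ran from −0.18 to 0.18, SESN1 from −0.24 to 0.61, FDXR from −0.32 to 0.22, RRM2B from −0.038 to 0.41 and GDF15 from −0.00018 to 0.99. For replicate 3 against the others MDM4 was at −0.026 in edgeR, and without single libraries MDM2 ran from −0.12 to 0.24, MDM4 from −0.067 to 0.081 and RRM2B from −0.16 to 0.31. In that contrast EHMT2, CDKN1A and DRAM1, also not called, ran from −0.052 to 0.32, −0.90 to 0.099 and −0.54 to 0.66 over the alternatives. At 8 to 32 reads, TP53INP1 in siG9a and RRM2B are limited by counting error.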
